A study of Mus musculus with 12 samples.

Results

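The 10 genes described here are *Per1*, *Per2*, *Per3*, *Cry1*, *Cry2*, *Nr1d1*, *Nr1d2*, *Dbp*, *Tef* and *Ciart*, which carry the negative limb and the output of the circadian clock. They were chosen by symbol from the 40840 genes listed in the raw count files of 12 RNA-seq libraries, and all 10 were among the 13570 genes that had enough reads to be tested. The libraries came from OTII CD4+ T cells, which carry a transgenic T cell receptor for a peptide of ovalbumin (OVA; the donor strain is C57BL/6-Tg(TcraTcrb)425Cbn/J). OTII cells had been transferred into WT recipients or into *Il6*-/- recipients (B6.129S2-IL-6tm1Kopf/J), which lack the cytokine IL-6 in every cell of the host but not in the transferred cells. All recipients were sensitized intranasally with OVA and house dust mite (HDM) extract of high endotoxin content, to which, by the study's methods, lipopolysaccharide (LPS) had been added, and the OTII cells were sorted from the mediastinal lymph nodes. Each genotype was sampled on Day 3 and on Day 5 in 3 replicates, which gives 4 groups. Days are named as in the labels, and the series' design text states that the manuscript starts its count at another day (0 in place of 1). The sources used here do not give the hour at which the nodes were taken, the age of the animals or whether a replicate is 1 mouse or a pool, and the tissue label reads blood. A difference in the hour of collection between groups therefore cannot be told apart from a difference in day or in recipient genotype, and p-values measure only the spread between these libraries, which may be technical.

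In the mammalian clock the transcription factors BMAL1 (encoded by *Arntl*) and CLOCK bind E-box sequences and activate the *Per* and *Cry* genes. The PER and CRY proteins then enter the nucleus and repress BMAL1 and CLOCK, which closes a loop of about a day. The same activators drive *Nr1d1* and *Nr1d2*, which encode the heme-binding nuclear receptors REV-ERBα and REV-ERBβ, repressors of *Arntl*. They also drive the PAR bZIP factors DBP and TEF, which act on D-box sequences, and CIART (CHRONO), a further repressor of BMAL1 and CLOCK. *Per1* is in addition a gene that responds within minutes to cAMP, calcium and glucocorticoid signals in many cells. In T cells the clock is known for daily rhythms in trafficking and in the response to antigen.

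RefSeq promoter sequences (build GRCm38.p6) were held for 9 of the 10 genes, in 11 windows of 250 bases before an annotated start, and *Per2* had no window. The canonical E-box, searched as CACGTG, was found in 5 windows of 4 genes, *Per1*, *Cry1*, *Tef* and *Ciart*, whereas 6.02% of 32851 mouse windows of the same length held it. The *Ciart* window held 3 copies, a number reached by 0.0609% of all windows. The D-box, searched as TTANGTAA, was found in 1 window, that of *Per3*, which held 2 copies, and 2.06% of all windows held at least 1. The variant CACGTT was found once each in *Cry1*, *Cry2* and *Nr1d1* (3.85% of all windows), and the core of the REV-ERB site, AGGTCA, once each in *Per1* and *Nr1d2* (14% of all windows). The STAT element, searched as TTCNNNGAA, was found in the second *Per1* window and in *Dbp* (7.02% of all windows), and the cAMP response element TGACGTCA in none of the 11 (1.55% of all windows). Each motif was searched on both strands. A match describes these letters only and does not show that a factor binds there. The windows of 5 genes are printed from the gene's own strand, 5′ to 3′, because *Ciart*, *Per1*, *Tef* and *Cry1* are the genes with an E-box and *Per3* the one with D-boxes, and they recur in the results. Capitals mark matches to the motifs named above, on either strand.
Ciart promoter, chr3:95882229-95882478, reverse strand: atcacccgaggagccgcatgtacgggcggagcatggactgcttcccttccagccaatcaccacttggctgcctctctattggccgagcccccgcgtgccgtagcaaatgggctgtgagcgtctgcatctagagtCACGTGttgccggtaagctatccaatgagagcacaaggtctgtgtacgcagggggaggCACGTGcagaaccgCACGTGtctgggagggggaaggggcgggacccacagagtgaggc
Per1 promoter, first start, chr11:69098699-69098948, forward strand: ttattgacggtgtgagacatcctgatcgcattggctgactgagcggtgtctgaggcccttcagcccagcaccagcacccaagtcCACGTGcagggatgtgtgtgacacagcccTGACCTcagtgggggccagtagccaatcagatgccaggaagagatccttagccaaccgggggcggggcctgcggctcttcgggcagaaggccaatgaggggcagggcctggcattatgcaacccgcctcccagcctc
Cry1 promoter, chr10:85185055-85185304, reverse strand: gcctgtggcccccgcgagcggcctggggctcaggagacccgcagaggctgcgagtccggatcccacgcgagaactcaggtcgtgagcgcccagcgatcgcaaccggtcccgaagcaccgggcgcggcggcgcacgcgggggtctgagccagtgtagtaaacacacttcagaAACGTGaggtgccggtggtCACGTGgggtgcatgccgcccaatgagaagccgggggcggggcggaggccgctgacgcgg
Tef promoter, second start, chr15:81811164-81811413, forward strand: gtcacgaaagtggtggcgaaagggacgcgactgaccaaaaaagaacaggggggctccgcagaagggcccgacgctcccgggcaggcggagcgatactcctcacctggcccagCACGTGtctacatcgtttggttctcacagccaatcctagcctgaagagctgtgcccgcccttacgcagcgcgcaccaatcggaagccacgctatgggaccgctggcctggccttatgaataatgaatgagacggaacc
Per3 promoter, chr4:151044666-151044915, reverse strand: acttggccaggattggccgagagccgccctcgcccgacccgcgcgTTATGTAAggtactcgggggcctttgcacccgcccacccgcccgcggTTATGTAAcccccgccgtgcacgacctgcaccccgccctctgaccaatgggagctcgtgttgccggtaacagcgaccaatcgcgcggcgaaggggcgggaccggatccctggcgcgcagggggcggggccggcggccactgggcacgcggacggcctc

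The libraries held 16125947 to 26111657 reads counted on genes, which made up 52.5% to 62.2% of all their reads. A single counted read was thus worth 0.0390 to 0.0586 CPM (counts per 1000000 counted reads, with the totals scaled by edgeR's TMM factors). The 9 markers of CD4+ T cells were present in all 12 libraries, with a summed level of 7595 to 14068 CPM, against 5.19 to 10.7 CPM for 6 B cell markers and 27.5 to 95.5 CPM for 10 myeloid and dendritic cell markers. In these sorted but bulk samples, fewer cells of a type and less RNA per cell cannot be told apart.

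**Figure D1:**
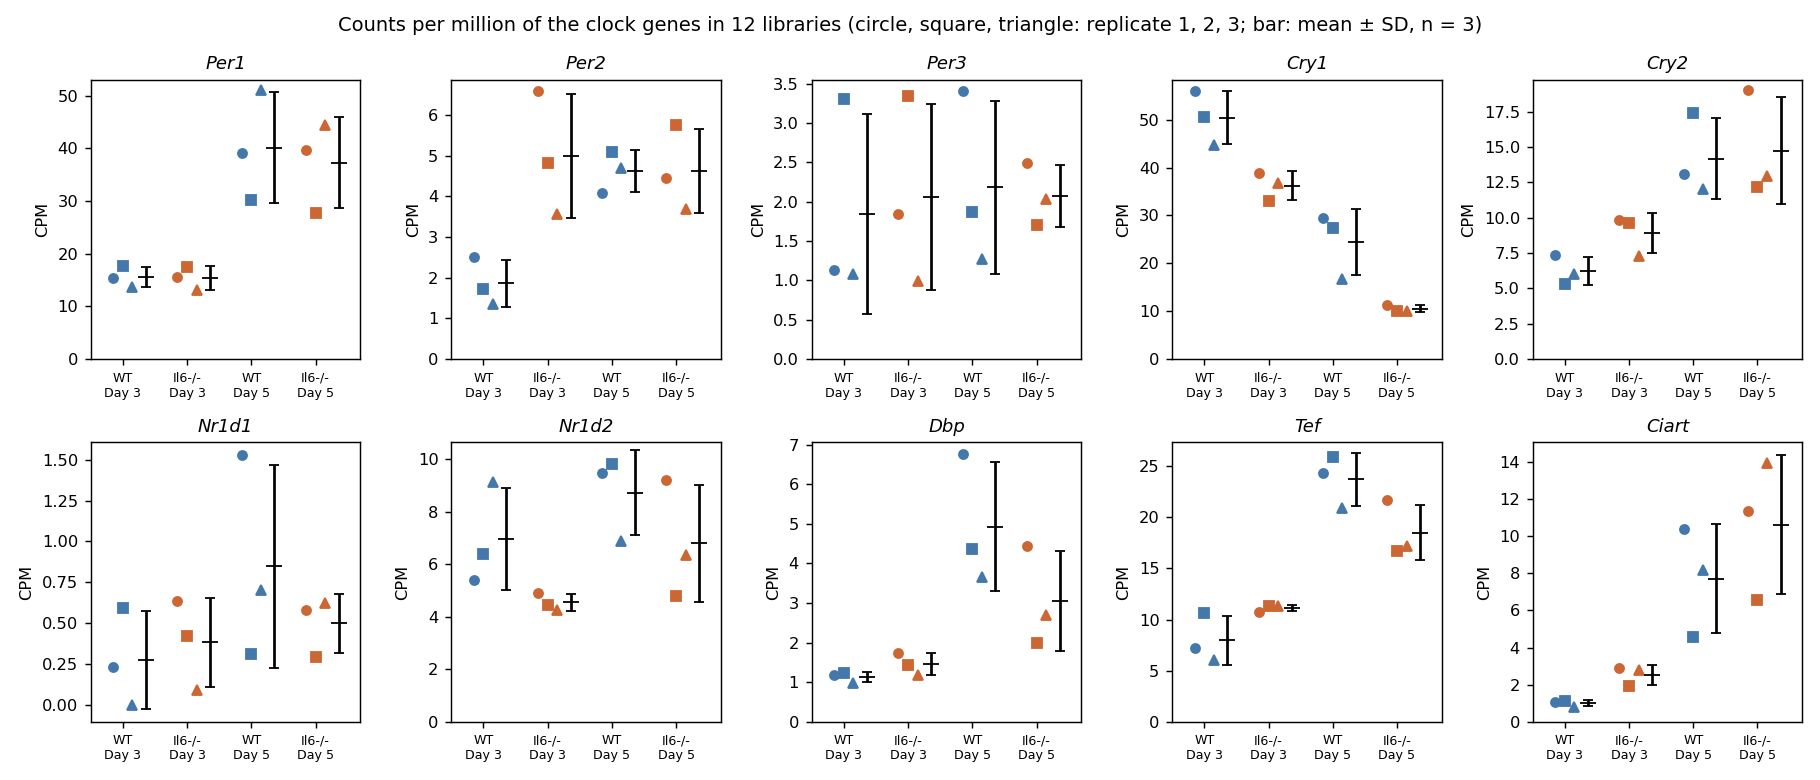
Level of each of the 10 clock genes in every library, in CPM on a linear axis, by group (WT and *Il6*-/- recipients on Day 3 and Day 5); points are single libraries, with the mean and SD of 3. *Cry1* falls from Day 3 to Day 5 and is lower in *Il6*-/- recipients on both days, whereas *Per1*, *Cry2*, *Dbp*, *Tef* and *Ciart* are higher on Day 5.

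Per kilobase of exon, *Cry1* was the most abundant clock gene on Day 3, at 10.1 ± 1.12 CPM per kb (SD, n = 3) in WT and 7.27 ± 0.613 in *Il6*-/- recipients. *Per1* came next in both groups, at 2.03 ± 0.254 and 2.01 ± 0.293 CPM per kb, and did not overlap its neighbors in the order. By Day 5 in WT recipients *Per1* (5.24 ± 1.38 CPM per kb) and *Cry1* (4.92 ± 1.38) were no longer separated, and *Ciart* (2.96 ± 1.13) and *Tef* (2.87 ± 0.312) followed, also overlapping each other. In *Il6*-/- recipients on Day 5 the order was *Per1* (4.87 ± 1.13 CPM per kb), *Ciart* (4.08 ± 1.44), *Tef* (2.24 ± 0.330) and *Cry1* (2.11 ± 0.150), each overlapping the next. *Nr1d1* and *Per3* were the lowest of the 10 in each of the 4 groups, with mean levels of at most 0.262 CPM per kb.

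The first question was how the clock genes differed between Day 3 and Day 5. In WT recipients 7 of the 10 passed edgeR's quasi-likelihood test with a Benjamini-Hochberg adjusted p (FDR) below 0.05, 6 of them higher and 1 lower on Day 5, and in *Il6*-/- recipients 6 passed, 5 higher and 1 lower. The background was high, because 56.7% of all tested genes passed in WT recipients and 60.5% in *Il6*-/- recipients. Higher calls made up 29.5% and 30.4% of all tested genes, and lower calls 27.1% and 30.1%. The median log2 fold change of the 10 genes was 1.33 in WT and 0.66 in *Il6*-/- recipients, beside 0.09 over all tested genes in each. All 7 genes that passed in WT recipients changed by at least 2-fold, as did 4 of the 6 in *Il6*-/- recipients, where 22.1% and 25.9% of all tested genes passed with such a change. The libraries of the days did not overlap for the same 7 and 6 genes (63.3% and 65.8% of all tested genes). Passing in both genotypes in the same direction held for 6 of the 10 genes, 5 higher (*Per1*, *Cry2*, *Dbp*, *Tef*, *Ciart*) and 1 lower (*Cry1*), beside 45.1% of all tested genes, 22.2% higher and 22.9% lower.

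**Figure D2:**
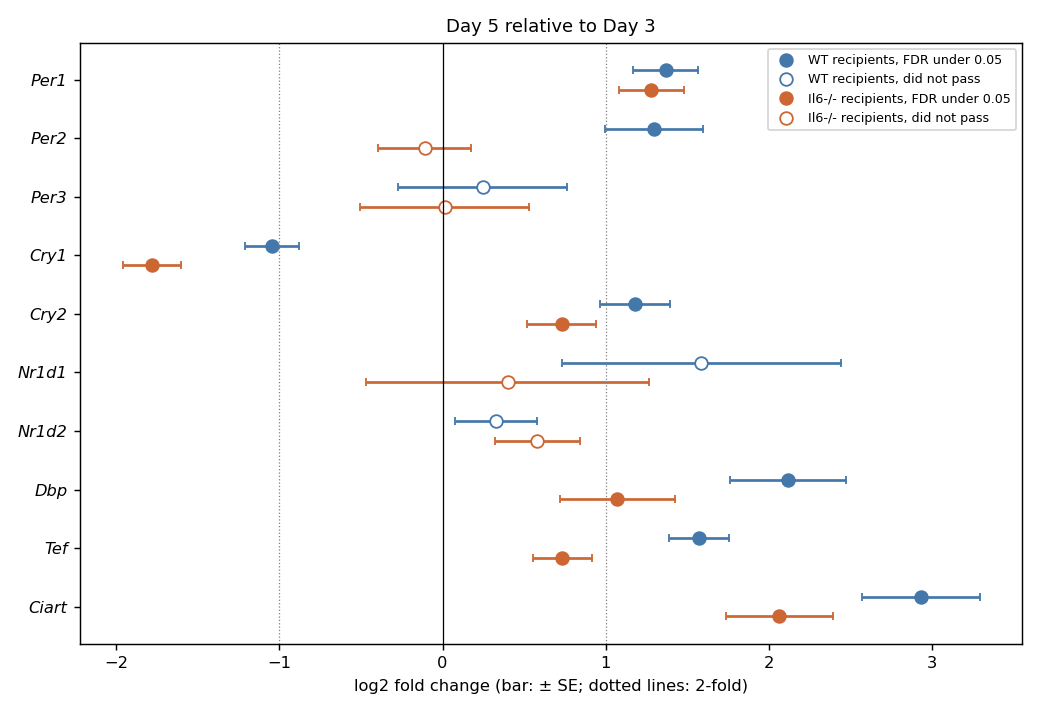
log2 fold change from Day 3 to Day 5 of the 10 clock genes in WT and *Il6*-/- recipients (positive is higher on Day 5), with SE from the edgeR fit; filled points passed an FDR below 0.05. *Ciart* had the largest rise in both genotypes (2.93 and 2.06) and *Cry1* was the one gene that fell in both (-1.04 and -1.78).

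*Ciart*, the CHRONO repressor whose window held 3 E-boxes, rose most of the 10 genes. Its level in WT recipients was 1.05, 1.14 and 0.814 CPM on Day 3 and 10.4, 4.57 and 8.18 CPM on Day 5, and in *Il6*-/- recipients 2.90, 1.91 and 2.80 CPM and then 11.4, 6.56 and 13.9 CPM. Every Day 5 library lay above every Day 3 library. The rise was 7.63-fold in WT recipients (log2 2.93, SE 0.36, FDR 6.2e-06) and 4.18-fold in *Il6*-/- recipients (log2 2.06, SE 0.33, FDR 6.6e-05). *Ciart* lies on chromosome 3 (GRCm39, 95785815 to 95789991, reverse strand), and 9.59% of its exon length overlaps the non-coding gene *C920021L13Rik* on the other strand. Reads were counted without regard to strand, so reads from such overlaps cannot be assigned to one of the genes.

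The PAR bZIP factors rose in both genotypes. *Tef* was at 7.18, 10.7 and 6.08 CPM in WT recipients on Day 3 and at 24.3, 25.9 and 20.9 CPM on Day 5, a log2 change of 1.57 (SE 0.18, FDR 3.8e-06). In *Il6*-/- recipients it was at 10.8, 11.4 and 11.3 CPM and then 21.6, 16.7 and 17.2 CPM, a change of 0.73 (SE 0.18, FDR 0.0026). Neither genotype had overlapping days. Non-coding genes on the other strand overlap the *Tef* exons, *Gm62928* over 11.1% of their length and *Gm17597* over 2.34%. *Gm62928* is not among the genes in the count files. *Dbp* went from 1.17, 1.24 and 0.977 CPM to 6.77, 4.36 and 3.67 CPM in WT recipients (log2 2.12, SE 0.36, FDR 1.3e-04). In *Il6*-/- recipients *Dbp* was at 1.74, 1.43 and 1.18 CPM on Day 3 and 4.45, 1.99 and 2.71 CPM on Day 5 (log2 1.07, SE 0.35, FDR 0.016), and its days did not overlap either. The *Dbp* call in *Il6*-/- recipients was lost without Day 3 replicate 3 (FDR 0.063) or without Day 5 replicate 1 (FDR 0.12), and 15.5% of its exon length overlaps *Sphk2* on the other strand.

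Among the *Per* genes, which encode the PERIOD repressors, *Per1* rose in both genotypes and *Per3* did not pass. *Per1* was at 15.3, 17.6 and 13.7 CPM in WT recipients on Day 3 and at 39.1, 30.1 and 51.2 CPM on Day 5 (log2 1.37, SE 0.20, FDR 3.3e-05). In *Il6*-/- recipients it was at 15.5, 17.6 and 13.1 CPM and then 39.8, 27.7 and 44.4 CPM (log2 1.28, SE 0.20, FDR 5.3e-05). The days were far apart in both genotypes, and the Day 5 libraries spread more widely. *Per2* rose in WT recipients, from 2.497, 1.73 and 1.36 CPM to 4.07, 5.09 and 4.70 CPM (log2 1.29, SE 0.30, FDR 0.0018). In *Il6*-/- recipients it was at 6.60, 4.83 and 3.55 CPM on Day 3 and at 4.45, 5.74 and 3.696 CPM on Day 5, which overlap (log2 -0.11, SE 0.29, FDR 0.75). *Per3*, whose window held the D-boxes, stayed between 0.995 and 3.41 CPM in all 12 libraries, and its groups overlapped in each comparison.

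The cryptochromes, the partners of PER, moved in opposite directions. *Cry1* fell from 55.9, 50.7 and 44.8 CPM on Day 3 to 29.5, 27.4 and 16.6 CPM on Day 5 in WT recipients (log2 -1.04, SE 0.17, FDR 7.7e-05), and from 39.0, 32.9 and 36.7 CPM to 11.4, 10.1 and 10.05 CPM in *Il6*-/- recipients (log2 -1.78, SE 0.18, FDR 5.7e-07). *Cry2* rose from 7.33, 5.34 and 6.03 CPM to 13.1, 17.4 and 12.04 CPM in WT recipients (log2 1.18, SE 0.21, FDR 2.5e-04). In *Il6*-/- recipients *Cry2* went from 9.82, 9.60 and 7.25 CPM to 19.1, 12.2 and 12.9 CPM (log2 0.73, SE 0.21, FDR 0.0073), a call lost without Day 5 replicate 1 (FDR 0.055). For both genes, no Day 5 library overlapped a Day 3 library of the same genotype. The *Cry1* level of WT Day 5 replicate 3 lay apart from the rest of its group.

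The ratio of *Cry1* to *Cry2* per kilobase of exon put the 4 groups in an order without overlap. It was 14.1 ± 1.96 (SD, n = 3; lowest 12.8, highest 16.4) in WT recipients on Day 3, 7.17 ± 1.44 (5.92 to 8.74) in *Il6*-/- recipients on Day 3, 3.00 ± 0.788 (2.38 to 3.89) in WT recipients on Day 5 and 1.27 ± 0.212 (1.03 to 1.43) in *Il6*-/- recipients on Day 5. On Day 5 *Cry1* thus remained in excess of *Cry2* in WT recipients, and the ratio was lowest in *Il6*-/- recipients. The size of the ratio, but not the order of the groups, rests on the annotated exon lengths (4978 bases for *Cry1* and 8585 for *Cry2*). In CPM without the length, *Cry1* averaged 10.5 and *Cry2* 14.7 in *Il6*-/- recipients on Day 5. A ratio within a library does not depend on the scaling of that library. It was formed after the values of both genes had been seen and was not tested.

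**Figure D3:**
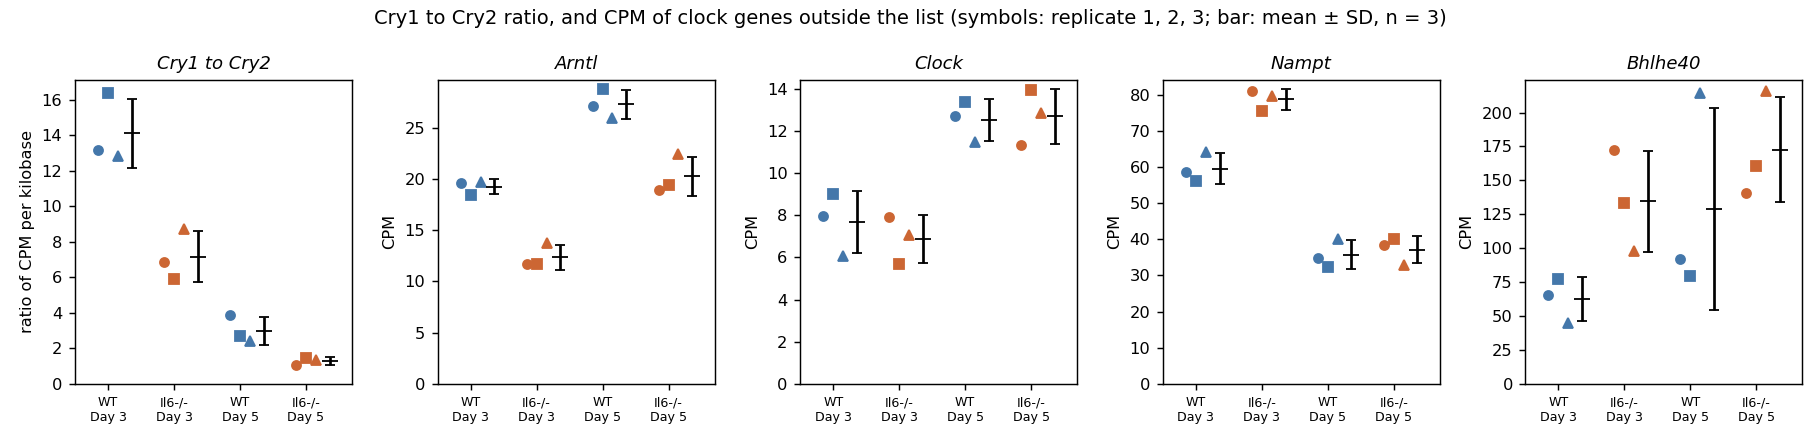
Ratio of *Cry1* to *Cry2* (both in CPM per kb of exon) in the left panel, and the levels in CPM of *Arntl*, *Clock*, *Nampt* and *Bhlhe40* in the other panels, in every library by group; symbols are replicates, and bars the mean and SD of 3 libraries. The ratio falls from 14.1 to 7.17, 3.00 and 1.27 over the groups in the order WT Day 3, *Il6*-/- Day 3, WT Day 5, *Il6*-/- Day 5, and *Arntl* is lower in *Il6*-/- than in WT recipients on both days without overlap.

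The REV-ERB genes did not pass in either genotype. *Nr1d2* was at 5.38, 6.38 and 9.12 CPM in WT recipients on Day 3 and at 9.47, 9.82 and 6.87 CPM on Day 5 (log2 0.33, FDR 0.28). Its levels in *Il6*-/- recipients were 4.91, 4.46 and 4.27 CPM and then 9.21, 4.80 and 6.35 CPM (log2 0.58, FDR 0.066), a difference that passed under upper-quartile scaling (FDR 0.015) and without scaling (FDR 0.022). Days overlapped in both. *Nr1d1* had 0 to 30 reads per library, 0 to 1.53 CPM, with no read in 1 WT Day 3 library, which allows up to 3 reads there by counting error alone. Exons of *Thra* on the other strand cover 52.3% of the *Nr1d1* exon length. Its log2 change from Day 3 to Day 5 was 1.59 in WT recipients (FDR 0.13, and 0.86 to 2.66 without single libraries, of which 1 fit passed at an FDR of 0.047) and 0.40 in *Il6*-/- recipients (FDR 0.71).

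The second question was whether the absence of IL-6 from the recipient changed these genes. On Day 3, 2 of the 10 genes passed, *Per2* and *Ciart*, both higher in *Il6*-/- recipients and both by more than 2-fold. Of all tested genes 13.7% passed on that day, 7.52% higher and 6.19% lower, and 2.74% passed with a change of at least 2-fold. The groups did not overlap for 5 of the 10 genes (*Per2*, *Tef* and *Ciart* above WT, *Cry1* and *Nr1d2* below), beside 36.2% of all tested genes. The median log2 change of the 10 genes was 0.40, and that of all tested genes 0.01. On Day 5, 1 of the 10 passed, *Cry1*, which was lower in *Il6*-/- recipients by more than 2-fold and was also the one gene without overlap. Of all tested genes 4.61% passed on Day 5, 1.27% higher and 3.35% lower, 1.14% with at least 2-fold, and 19.6% had no overlap. These Day 5 values come from the fit without a replicate block. With the replicate number as a block, 1 of the 10 passed as well, where 11.7% of all tested genes did. The Day 5 median of the 10 genes was -0.23, beside 0.01 for all tested genes.

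**Figure D4:**
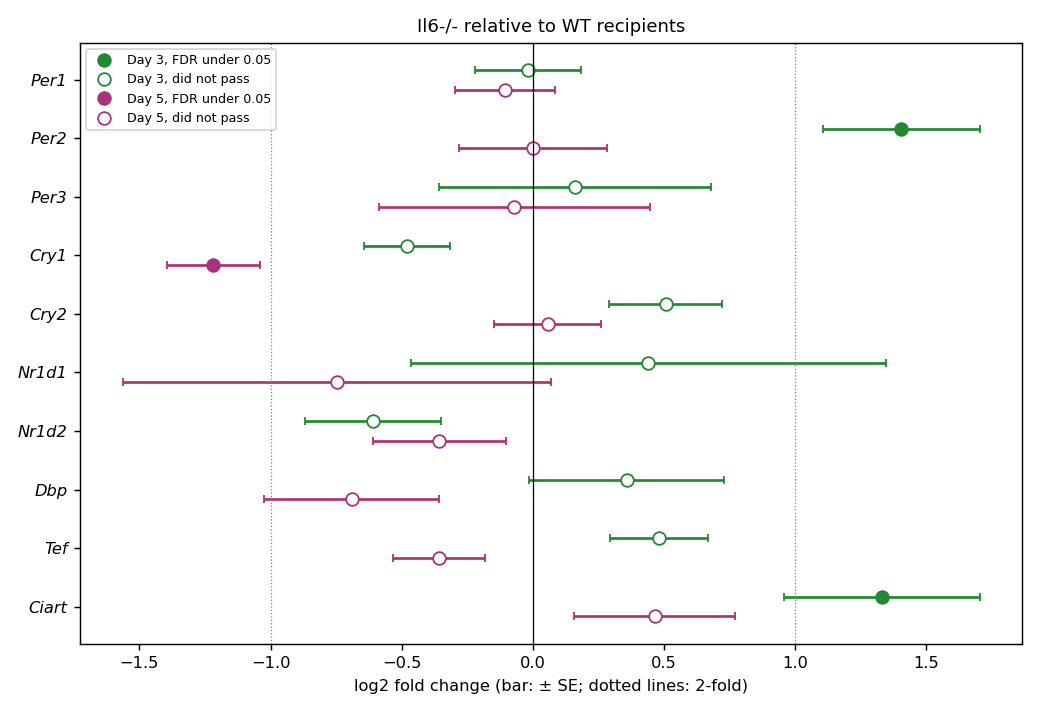
log2 fold change of the 10 clock genes in *Il6*-/- over WT recipients on Day 3 and on Day 5 (positive is higher in *Il6*-/-), with SE from the edgeR fit; filled points passed an FDR below 0.05. *Per2* (1.40) and *Ciart* (1.33) passed on Day 3 and *Cry1* (-1.22) on Day 5.

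*Per2* on Day 3 was higher in each of the 3 *Il6*-/- libraries (3.55 to 6.60 CPM) than in any WT library (1.36 to 2.497 CPM). The difference was 2.65-fold (log2 1.40, SE 0.30, FDR 0.0060), on 25 to 125 reads per library over the series, and it passed in every alternative tried. *Per2* lies on chromosome 1 (GRCm39, 91343700 to 91387069, reverse strand). On Day 5 the genotypes overlapped, at 4.62 ± 0.514 CPM (SD, n = 3) in WT and 4.63 ± 1.04 in *Il6*-/- recipients (log2 0.00, SE 0.28, FDR 1.0). The Day 3 level in *Il6*-/- recipients, 4.99 ± 1.53 CPM, thus lay where both genotypes were on Day 5. In the ratio to *Per1*, per kilobase, *Per2* was at 0.378 ± 0.102 in *Il6*-/- recipients on Day 3 (lowest 0.317). Every library of the other 3 groups lay below that, with means of 0.140, 0.142 and 0.157 and the highest library at 0.242. This ratio was picked from several after the values had been seen, and it was not tested.

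*Ciart* was at 1.00 ± 0.168 CPM (SD, n = 3) on Day 3 with WT hosts and 2.54 ± 0.546 CPM with *Il6*-/- hosts, a 2.51-fold difference without overlap (log2 1.33, SE 0.37, FDR 0.028). This call was less firm than that of *Per2*. It was lost with limma-voom (FDR 0.16), without WT Day 3 replicate 1 (0.062), 2 (0.068) or 3 (0.098), and without *Il6*-/- Day 3 replicate 1 (0.094) or 3 (0.076), while the log2 change stayed between 1.21 and 1.499. On Day 5 *Ciart* overlapped between the genotypes (log2 0.46, FDR 0.44).

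*Cry1* was lower in *Il6*-/- recipients on Day 5, at 10.5 ± 0.745 CPM (SD, n = 3) against 24.5 ± 6.89 CPM in WT recipients. The difference was 2.33-fold (log2 -1.22, SE 0.18, FDR 0.0025), no library overlapped, and the call held in every alternative tried. *Cry1* lies on chromosome 10 (GRCm39, 84967560 to 85021252, reverse strand). On Day 3 *Cry1* was at 50.5 ± 5.58 CPM with WT hosts and 36.2 ± 3.05 CPM with *Il6*-/- hosts, also without overlap (log2 -0.48, SE 0.16), but with an FDR of 0.065 it did not pass. It lay close to the threshold, since it passed in 7 of the 10 alternatives that kept all libraries, among them upper-quartile scaling (FDR 0.041) and DESeq2 (FDR 0.033), and in 3 of the 12 fits without a library, whose highest FDR was 0.21 (without *Il6*-/- Day 3 replicate 2).

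The other genes differed less between genotypes. *Tef* on Day 3 was at 7.98 ± 2.40 CPM with WT hosts and 11.1 ± 0.316 CPM with *Il6*-/- hosts without overlap (log2 0.48, SE 0.19, FDR 0.10). *Nr1d2* on Day 3 was at 6.96 ± 1.94 and 4.54 ± 0.332 CPM, again without overlap (log2 -0.61, SE 0.26, FDR 0.14). *Per1* showed the smallest genotype difference on Day 3 (log2 -0.02, FDR 0.97), and on Day 5 its log2 change was -0.11 (FDR 0.82). On Day 3 the genotypes overlapped for *Cry2* (log2 0.51, FDR 0.14) and *Dbp* (0.36, FDR 0.60). On Day 5 they overlapped for both of these (0.06, FDR 0.92, and -0.69, FDR 0.27), for *Tef* (-0.36, FDR 0.28) and for *Nr1d2* (-0.36, FDR 0.48).

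Whether the genotype difference itself changed between the days was tested as the Day 5 difference minus the Day 3 difference. None of the 10 genes passed (0 of 10) in the edgeR test, where 4.92% of all tested genes did, 1.8% upward and 3.12% downward. At an unadjusted p below 0.05 there were 3, *Per2* (log2 -1.40, SE 0.41, FDR 0.064), *Tef* (-0.84, SE 0.26, FDR 0.073) and *Cry1* (-0.74, SE 0.24, FDR 0.092). The count was 0 with limma-voom and 3, these same genes, with DESeq2, without the low-count filter and with the replicate number as a block within each day. The estimate was negative for 9 of the 10 genes, with a median of -0.79 beside 0.00 over all tested genes. So a gene that passed on one day and not on the other, as *Per2*, *Ciart* and *Cry1* did, was not shown by the main test to differ between the days.

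A further 32 genes of the clock and its regulators were read in the same way, of which 27 could be tested. On Day 3, 4 passed between genotypes, 2 in each direction, where 13.7% of all tested genes did. On Day 5 also 4 passed without a replicate block, all lower in *Il6*-/- recipients, where 4.61% did. With the Day 5 replicate number as a block, *Gsk3b* (log2 -0.26, FDR 0.041) was lower and *Bhlhe40* (0.54, FDR 0.030) higher as well. Of all tested genes 11.7% passed with that block. *Arntl*, which encodes the activator BMAL1, was at 19.6, 18.4 and 19.8 CPM on Day 3 with WT hosts and 11.7, 11.7 and 13.8 CPM with *Il6*-/- hosts (log2 -0.64, SE 0.12, FDR 0.0020). On Day 5 it was at 27.1, 28.8 and 26.0 CPM with WT hosts and 18.9, 19.5 and 22.4 CPM with *Il6*-/- hosts (log2 -0.43, SE 0.11, FDR 0.041). The genotypes did not overlap on either day, but the Day 5 call is fragile, since it passed in 3 of the 12 fits that left out a library and its FDR was 0.053 under RLE scaling. *Clock*, its partner, did not pass between genotypes (log2 -0.16 on Day 3 and 0.02 on Day 5), and both activators rose by Day 5, *Arntl* by 0.50 (FDR 0.0014) and *Clock* by 0.70 (FDR 0.0035) in WT recipients.

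On Day 3 *Bhlhe40*, which encodes the repressor DEC1, averaged 62.4 ± 16.4 CPM (SD, n = 3) with WT and 135 ± 37.1 CPM with *Il6*-/- hosts (log2 1.11, SE 0.32, FDR 0.031), a call that 8 of the 12 fits without a library kept and DESeq2 did not (FDR 0.061). On Day 5 *Bhlhe40* differed by 0.42 (SE 0.31, FDR 0.50). The FDR was 0.030 with the replicate number as a block and 6.9e-04 with no low-count filter. These were the only 2 of the 10 alternatives without a library left out that passed. The log2 difference was 0.41 to 0.54 in those 10, and the libraries of the genotypes overlapped on Day 5. WT Day 5 replicate 3 stood at 214 CPM, and without it the log2 difference was 1.01 (FDR 0.019), whereas it was 0.17 to 0.55 without another single library. *Nampt*, a clock-driven enzyme of NAD+ synthesis, was higher in *Il6*-/- recipients on Day 3 (log2 0.40, SE 0.10, FDR 0.015). On Day 5 *Csnk1e*, a kinase that marks PER for degradation (log2 -1.05, SE 0.24, FDR 0.024, below 0.05 in 8 of the 12 fits without a library), and *Id2*, an inhibitor of bHLH factors (log2 -0.70, SE 0.14, FDR 0.011), were lower. The *Id2* difference was the one that changed with day (log2 -0.98, SE 0.20, FDR 0.014).

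From Day 3 to Day 5, 20 of the 27 genes passed in WT recipients, 10 in each direction, beside 56.7% of all tested genes (29.5% higher, 27.1% lower). A total of 19 passed in *Il6*-/- recipients, 10 higher and 9 lower, beside 60.5% (30.4% higher, 30.1% lower). Their median log2 changes were 0.19 and 0.12, whereas those of the 10 clock genes above were 1.33 and 0.66. Without the sign, the medians were 0.70 in WT and 0.83 in *Il6*-/- recipients, beside 1.33 and 0.73 for the 10 clock genes.

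Per-library profiles most like those of the clock genes were found by the root-mean-square difference of centered log2 CPM over the 12 libraries. *Ciart* was closest to *Bcl2l11*, which encodes the pro-apoptotic protein BIM (0.375), then to *1700019D03Rik* (0.450) and *BC049352* (0.451). *Cry1* was closest to *Ppp1cc*, a catalytic subunit of protein phosphatase 1 (0.229), *Polr2m* (0.250) and *Enpp4* (0.262). *Tef* was closest to *Tnfrsf9*, which encodes the costimulatory receptor 4-1BB (0.195), *Dapl1* (0.209) and *Asb13* (0.220). *Per1*, added after its values were seen, was closest to *Cd69*, an early marker of T cell activation (0.115), *Kdm6b* (0.162) and *Klf6* (0.184). Between clock genes the smallest differences were those of *Tef* with *Cry2* (0.327), *Dbp* (0.349) and *Per1* (0.365). Many genes outside the list lay closer. Among all tested genes *Cry2* ranked 201 in closeness to *Tef*, and *Tef* ranked 283 for *Cry2*, 36 for *Dbp* and 693 for *Per1*. The libraries share their groups and their depth, so these values are descriptions.

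Other gene lists were read between the days as well. Of all tested genes 29.5% passed higher and 27.1% lower on Day 5 in WT recipients, and 30.4% and 30.1% in *Il6*-/- recipients. Of 10 immediate early genes, 9 rose in WT and 10 in *Il6*-/- recipients, with a summed level of 899 to 1079 CPM and 750 to 805 CPM on Day 3 and of 1921 to 2606 CPM and 1570 to 2464 CPM on Day 5. Of 9 tested genes of a glucocorticoid-induced list, which includes *Per1*, 5 rose and 1 fell in WT and 7 rose and 1 fell in *Il6*-/- recipients. All 9 markers of CD4+ T cells rose too, with median log2 changes of 0.53 in WT and 0.62 in *Il6*-/- recipients. All 10 proliferation genes fell in both genotypes, from 4959 to 5446 CPM on Day 3 to 552 to 884 CPM (WT) and 742 to 1551 CPM (*Il6*-/-) on Day 5. Of the 10 myeloid and dendritic cell markers 7 were tested and 3 rose in each genotype, with sums of 27.5 to 40.5 CPM (WT) and 53.8 to 57.2 CPM (*Il6*-/-) on Day 3 and 59.1 to 95.5 and 63.1 to 86.2 CPM on Day 5. *Cd74* alone averaged 15.4 CPM (WT) and 37.7 CPM (*Il6*-/-) of these sums on Day 3. The 5 lung epithelial markers summed to 0.494 to 1.52 CPM and 0.475 to 11.3 CPM on Day 3 and to 2.55 to 20.7 CPM and 5.19 to 9.58 CPM on Day 5, and no marker of these lists was at 0 in all 12 libraries. The part of these groups in the day differences of the clock genes was not tested.

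The same lists were read between genotypes. Without a block the share of all tested genes that passed was 13.7% on Day 3 (7.52% higher, 6.19% lower). It was 4.61% on Day 5 (1.27% higher, 3.35% lower) and 4.92% in the change between the days. On Day 3, 3 immediate early genes were lower in *Il6*-/- recipients, *Jun* (log2 -1.15), *Egr1* (-0.46) and *Egr2* (-0.78), and *Egr1* was again lower on Day 5 (-0.58). With the Day 5 replicate number as a block, *Egr2* (-0.30, FDR 0.024) and, of the glucocorticoid-induced list, *Dusp1* (-0.34, FDR 0.015) were also lower on Day 5. From the glucocorticoid-induced list *Sgk1* (-1.14, FDR 8.7e-04) and *Ddit4* (-0.49, FDR 0.014) were lower and *Il7r* (0.62, FDR 0.017) was higher on Day 3, none of the 9 passed on Day 5 (1 at an unadjusted p below 0.05), and *Ddit4* changed between the days (0.82). The proliferation genes differed on Day 5 by a median log2 change of 0.63, all 10 higher in *Il6*-/- recipients, and the call depended on the pairing of the libraries. Without the block none passed in the edgeR test (9 at an unadjusted p below 0.05), and with it all 10 passed, where 11.7% of all tested genes did, with log2 changes from 0.36 (*Pcna*, FDR 0.0024) to 0.83 (*Aurkb*, FDR 0.0013). On Day 3 none of the 10 passed (1 at an unadjusted p below 0.05).

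Single cell-type markers also passed between genotypes, where 13.7% of all tested genes passed on Day 3, 4.61% on Day 5 and 4.92% in the change between the days. On Day 3 *Cd28* (log2 -0.48, FDR 0.0018) and *Trac* (-0.34, FDR 0.0093), of the 9 CD4+ T cell markers, were lower in *Il6*-/- recipients, and on Day 5 *Cd3d* was (-0.37, FDR 0.037), joined by *Cd3g* with the block (-0.30, FDR 0.016). Of the 5 markers of CD8+ T and NK cells, 3 were tested and *Klrb1c*, which encodes NK1.1, was higher on Day 3 (log2 2.11, FDR 7.7e-06) and lower on Day 5 (-0.60, FDR 0.0497), a change between the days of -2.70 (FDR 1.7e-04). All 3 had a positive log2 change on Day 3, whereas on Day 5 it was positive for 2 and negative for 1. *Klra8*, of the same list, was at 0 in all libraries. The summed level of this list was 62.2 to 74.0 CPM in WT and 82.8 to 112 CPM in *Il6*-/- recipients on Day 3, and 87.0 to 108 CPM and 80.2 to 97.7 CPM on Day 5. Of the 7 tested myeloid and dendritic cell markers *Cd74* was higher on Day 3 (log2 1.29, FDR 1.7e-04). Among these 7 markers 2 had a positive and 5 a negative log2 change on Day 3, with a median of -0.23. Of 3 tested B cell markers *Pax5* was lower on Day 3 (-2.26, FDR 0.039), on 0 to 22 reads per library. The Day 3 log2 change was positive for 2 of these B cell markers and negative for 1, with a median of 0.13. Of 4 tested lung epithelial markers *Sftpc* was higher on Day 3 (log2 5.59, FDR 0.041), with 4, 0 and 0 reads in WT and 1, 176 and 9 reads in *Il6*-/- recipients, which overlap. The part of these genes in the genotype differences of *Per2*, *Ciart* and *Cry1* was not tested.

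Libraries with the same replicate number were also compared, since the number may stand for a shared day of work. On Day 5 replicate 2 was the lowest library in both genotypes for 3 of the 10 genes, *Per1* and *Ciart* among them, and replicate 1 the highest for 3, *Dbp* among them. On Day 3 replicate 3 was the lowest in both genotypes for 5 of the 10. What the numbers stand for, and whether they follow the hour of collection, is not given in the sources used here.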

How the data were processed

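RNA from sorted OTII CD4+ T cells was sequenced as single-end 50 bp reads. According to the submitters' methods and processing notes, adapters were removed with Trim Galore 0.4.4, STAR 2.5.2a placed the reads on GRCm39, and HTSeq 0.6.1p1 assigned them to genes without regard to strand. The 12 raw count files they deposited, 1 per library, hold whole-number read counts for 40840 genes. Rows that name no gene were left out of library sizes: 23.7% to 28.2% of reads were not uniquely aligned, 11.7% to 17.3% fell on no feature and 1.96% to 2.28% were ambiguous. A table of log2 CPM over the whole series, also deposited by the authors, was not used.

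The genes described, the gene lists and the rule for naming other genes were chosen with earlier results of these data known. The rule named all 10 clock genes, *Arntl* and *Clock*, any listed gene that passed between genotypes or in the change between days, and the 3 most similar profiles for the 3 clock genes with the most calls, ties broken by the smallest p. A listed gene that this rule would name is not reported here. Counts were analyzed with edgeR 4.0.16 (R 4.3.3): filterByExpr (13570 genes kept), TMM scaling and 1 quasi-likelihood model of 4 group means over the 12 libraries, with Benjamini-Hochberg adjustment over all tested genes. The SE was taken from the log2 fold change and its F statistic. Levels are CPM on TMM-scaled totals; CPM per kb used GENCODE exon lengths on GRCm39. Intervals and floors cover counting error only, and an exact permutation test of 3 against 3 libraries cannot go below p = 0.1. The fit was tested on simulated data. Alternatives were RLE, upper-quartile and no scaling, no filter and a filter of 1 CPM in 3 libraries, DESeq2 1.42.0, limma-voom (limma 3.58.1), fits on the groups compared only, a 2-fold limit, the replicate number as a block within each day, and leaving out each library.

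Whether replicate numbers pair the libraries was checked by correlating deviations from the group means across genes between WT and *Il6*-/- libraries of the same number. The values were 0.24, 0.21 and 0.13 on Day 5, so the numbers may pair the Day 5 libraries. On Day 3 they were 0.033, 0.060 and 0.032. The main fit used no block on either day. The Day 5 results are therefore unpaired unless the block is named beside them. With the block, 1592 genes passed between genotypes on Day 5, against 626 without it. On Day 3 the block gave 2658 genes, against 1861 without it. The block was applied to the other gene lists after the data had been seen.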

Additional observations from a re-analysis of the deposited data

How the results depend on the processing

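The calls of *Per2* on Day 3 and *Cry1* on Day 5 held in all alternatives, and the count on Day 5 stayed at 1 gene throughout. On Day 3 the count of 2 ranged from 1 to 3 without single libraries and was 4 with the replicate block within each day, which adds *Cry1* and *Tef*. Day 3 libraries of the same number deviated together only weakly (correlations 0.033, 0.060 and 0.032), and what their numbers stand for is not given. For the change of the genotype difference between days, the count of 0 became 3 (*Per2*, *Cry1* and *Tef*) without the low-count filter, with DESeq2 and with the block, and 0 to 1 without single libraries, being 1 without WT Day 3 replicate 1 or 2, WT Day 5 replicate 3, *Il6*-/- Day 3 replicate 3 or *Il6*-/- Day 5 replicate 1. The cause was not tested. From Day 3 to Day 5 the count stayed at 7 to 8 in WT and at 4 to 7 in *Il6*-/- recipients without single libraries. The block changed no other call of the 10 genes. Its effect on the proliferation genes, on *Gsk3b* and on *Bhlhe40* stands beside those results. Over all genes the Day 5 count of 626 was 1397 with no filter, 1127 with DESeq2, 359 on the groups compared only, 1592 with the block, 155 with the 2-fold limit and 225 to 1169 without single libraries. For the change between days the count of 668 was 1300, 1132, 1564 (block), 187 (2-fold) and 235 to 943 (single libraries left out). With the 2-fold limit 372, 2996 and 3509 genes remained on Day 3 and between the days in WT and *Il6*-/- recipients.

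Scaling moved the median log2 change of all genes from Day 3 to Day 5 from 0.09 in each genotype to 0.29 in WT and 0.32 in *Il6*-/- recipients (upper-quartile) and to 0.14 and 0.24 (no scaling). Higher calls then made up 66.5% and 65.0% (upper-quartile) and 56.3% and 60.4% (no scaling), against 52.1% and 50.2% with TMM. On Day 3 between genotypes the share of higher calls was 54.9% with TMM, 44.8% with upper-quartile and 39.3% with no scaling; on Day 5 it was 27.5% and, with no scaling, 40.8%; for the change between days it was 36.5%, 47.2% and 64.8%.

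Signs turned only for estimates that did not pass. For *Per2* on Day 5 the log2 difference between genotypes was 0.025 (RLE), 0.044 (no scaling), 0.0057 (no filter) and 0.024 (DESeq2), and its change in *Il6*-/- recipients 0.11 (upper-quartile) and 0.041 (no scaling). For *Per3* it was -0.045 (no filter) and -4.2e-04 (DESeq2) in *Il6*-/- recipients, and 0.050 (limma-voom) and 0.0058 (block) on Day 5. The change between days of *Per1* was 0.0087 (no scaling), and *Csnk1e* changed by 0.057 in *Il6*-/- recipients (upper-quartile). Without single libraries the genotype difference on Day 3 ranged from -0.12 to 0.090 for *Per1*, -0.37 to 0.89 for *Per3* and -0.12 to 1.52 for *Nr1d1*, and on Day 5 from -0.27 to 0.11 for *Per1*, -0.16 to 0.14 for *Per2*, -0.35 to 0.40 for *Per3*, -0.17 to 0.23 for *Cry2* and -0.039 to 0.097 for *Clock*. The change between days ranged from -0.26 to 0.14 for *Per1*, -0.96 to 0.30 for *Per3* and -0.031 to 0.51 for *Nr1d2*. The day difference ranged from -0.23 to 0.96 for *Per3* in WT recipients, and in *Il6*-/- recipients from -0.31 to 0.14 for *Per2*, -0.33 to 0.54 for *Per3* and -0.080 to 0.96 for *Nr1d1*. The reads were fewest for *Nr1d1* (0 to 30 per library), *Per3* (20 to 67) and *Dbp* (18 to 133).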
